A study of Mus musculus with 6 samples.

Results

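The small leucine-rich proteoglycans (SLRPs) are secreted matrix proteins that carry a run of leucine-rich repeats, and 10 of their genes were examined here in cultured bone marrow cells of mice: *Dcn*, *Bgn*, *Aspn*, *Lum*, *Fmod*, *Prelp*, *Kera*, *Omd*, *Ogn* and *Podn*. They were found by gene name among the 56980 genes of the count table. Each name matched 1 gene, 9 of the 10 had counts, and the same 9 passed the filter on low counts, which left 15190 genes for testing. The cells came from 3 TranspCtrl and 3 TranspExer samples.

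All recipients were female mice that had lost both ovaries (ovariectomy, OVX) at 8 weeks of age, a model of bone loss after estrogen deficiency. Their own gut microbiota was depleted with an oral mixture of ampicillin, metronidazole, neomycin and vancomycin before fecal microbiota transplantation (FMT), which was repeated for 8 weeks. The donors of the TranspCtrl group were sedentary OVX mice, and those of the TranspExer group were OVX mice trained on a treadmill, so the groups differed in the donor's exercise and shared the surgery and the antibiotics. The strain is not given in the sources used here. Marrow flushed from femurs and tibias was grown for 7 days with changes of medium, and the cells that stayed were labelled mesenchymal stem cells (MSCs), with no sort on surface markers described. The labels do not say whether each sample was a separate mouse, so the p-values below measure only the spread between these samples, which may be technical.

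SLRPs bind collagen fibrils and set how thickly and how evenly the fibrils assemble in bone, tendon, skin and cornea. The leucine-rich core also binds growth factors such as TGF-β and BMPs and, once released from the matrix, receptors of innate immunity. In bone, biglycan is a major proteoglycan of the matrix that osteoblasts lay down, and osteomodulin and osteoglycin are made by cells of the osteoblast lineage as they mature.

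Total counts per sample ranged from 17647638 to 21319166. Of the 15190 tested genes, edgeR called 2361 lower and 2523 higher in the TranspExer group at an adjusted p under 0.05, which is 15.5% and 16.6%. With upper-quartile scaling this split became 2901 lower and 2052 higher, and with scaling by library size alone 2962 lower and 2013 higher. TranspCtrl replicate 1 stood apart from its group: its counts differed from those of the other TranspCtrl samples with a mean chi-square per gene of 59.2 and 54.0, against 3.79 between those other samples and 4.43 to 7.82 among the TranspExer samples. No pair of samples was near enough to be one library deposited again. The counts of the SLRP genes and of the related gene lists are given below with and without it, and the cell type marker lists with it only.

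Of the 9 SLRP genes tested, 8 were lower in the TranspExer group at an adjusted p under 0.05, where 15.5% of all tested genes were lower. By edgeR 0 were higher, where 16.6% of all tested genes were. DESeq2 and limma voom also called 0 higher, and at an unadjusted p under 0.05 edgeR had 1, *Podn*. *Dcn*, *Lum*, *Fmod*, *Omd* and *Aspn*, 5 of the 9, fell by at least 2-fold as well, against 5.28% of all tested genes. The median log2 fold change (TranspExer against TranspCtrl) of the 9 genes was -1.45, beside -0.02 over all tested genes. Without TranspCtrl replicate 1 the counts were again 8 lower, 0 higher (edgeR) and 5 past both thresholds, in a fit that called 19.6% of all tested genes lower and 22.1% higher.

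**Figure D1:**
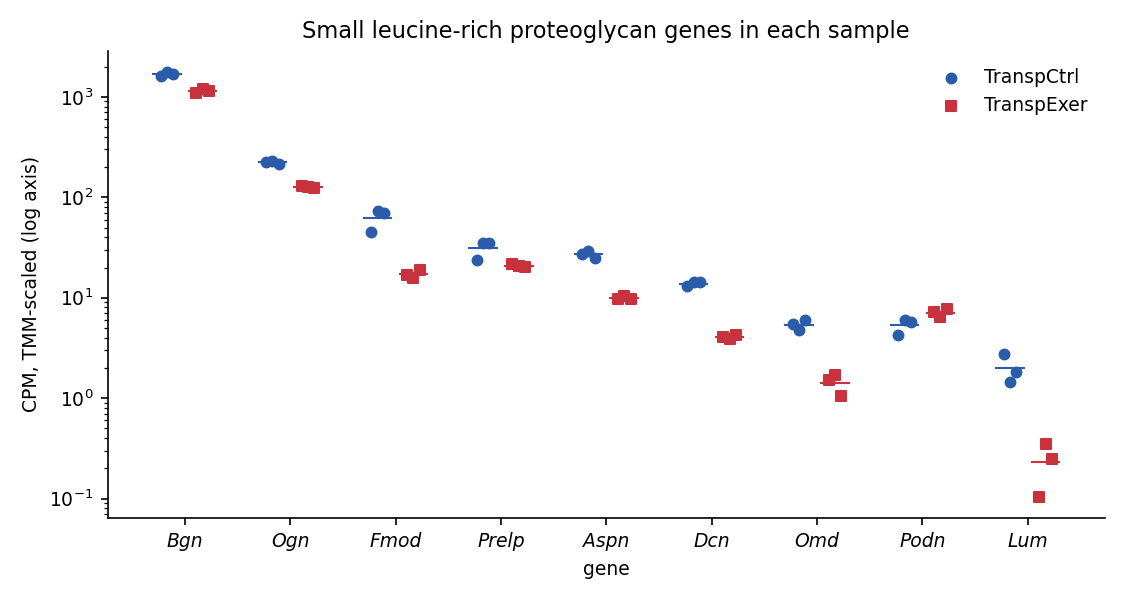
Level of each detected SLRP gene in each sample, in CPM (counts scaled to the size of each library with TMM factors, log axis), with circles for the 3 TranspCtrl samples, squares for the 3 TranspExer samples and a short line at each group mean. The groups are apart for all 9 genes, with the TranspExer samples lower for 8 of them and higher for *Podn*.

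In the same plot 8 of the 9 genes had every TranspExer sample under every TranspCtrl sample, a pattern that 25.1% of all tested genes showed. The reverse order, found for *Podn*, was shown by 27.2%. The design of 3 samples against 3 allows an exact permutation test of a single gene no p below 0.1, so calls rest on the edgeR fit over all genes. These are bulk samples, in which fewer cells of a type and less RNA per cell cannot be told apart.

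The class I genes *Bgn*, *Dcn* and *Aspn* were all lower in the TranspExer group. *Bgn* (ENSMUSG00000031375) encodes biglycan, which usually carries chondroitin or dermatan sulphate chains and binds collagen, BMPs and Toll-like receptors. It lies on chromosome X (GRCm38 chrX:73483602-73495933, plus strand). Its level was 1625, 1771 and 1702 CPM in the TranspCtrl samples and 1105, 1198 and 1148 CPM in the TranspExer samples. The highest TranspExer sample was well under the lowest TranspCtrl sample, and the spread within each group was small. The means were 1699 ± 72.9 and 1150 ± 46.6 CPM (SD, n = 3 each), a log2 fold change of -0.56 ± 0.08 (SE, adjusted p = 0.00233). *Bgn* thus stayed at 67.7% of its TranspCtrl level, the smallest of the 8 called decreases in this fit. *Prelp* was close, at 66.7%, and its decrease was smaller than that of *Bgn* when TranspCtrl replicate 2 or 3 was left out.

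*Dcn* (ENSMUSG00000019929) encodes decorin, the close relative of biglycan that binds collagen fibrils and TGF-β. It lies at chr10:97479609-97518143 on the plus strand. Its level was 12.9, 14.3 and 14.2 CPM in the TranspCtrl samples against 4.03, 3.89 and 4.27 CPM in the TranspExer samples. The groups were far apart and each was tight, with means of 13.8 ± 0.773 and 4.06 ± 0.192 CPM (SD, n = 3 each). The log2 fold change was -1.76 ± 0.12 (SE, adjusted p = 6.69e-05), the smallest adjusted p of the 9 genes, and the TranspExer mean was 29.4% of the TranspCtrl mean.

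*Aspn* (ENSMUSG00000021388, chr13:49544443-49567565, plus strand) encodes asporin, which has a stretch of aspartate residues in place of a chain attachment site and competes with decorin for collagen. It was measured at 27.4, 29.2 and 24.8 CPM in the TranspCtrl samples and at 9.78, 10.5 and 9.64 CPM in the TranspExer samples. All TranspExer samples were below all TranspCtrl samples. The means of 27.1 ± 2.18 and 9.96 ± 0.440 CPM (SD, n = 3 each) gave a log2 fold change of -1.45 ± 0.10 (SE, adjusted p = 8.10e-05).

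Of the 5 class II genes 4 were lower and *Kera* was not detected. *Fmod* (ENSMUSG00000041559, chr1:134037254-134048277, plus strand) encodes fibromodulin, a keratan sulphate proteoglycan that guides fibril growth and collagen crosslinking, above all in tendon. Its values were 44.8, 72.5 and 70.6 CPM in the TranspCtrl samples and 16.9, 15.9 and 19.1 CPM in the TranspExer samples. TranspCtrl replicate 1 was the low sample of its group and was still over each TranspExer sample. The means were 62.6 ± 15.5 and 17.3 ± 1.64 CPM (SD, n = 3 each), with a log2 fold change of -1.86 ± 0.19 (SE, adjusted p = 0.000372), or -2.05 without TranspCtrl replicate 1.

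*Prelp* (ENSMUSG00000041577, chr1:133910304-133921414, minus strand) encodes PRELP, whose basic end binds heparan sulphate of basement membranes. It had 23.5, 34.8 and 34.8 CPM in the TranspCtrl samples and 21.4, 20.5 and 20.2 CPM in the TranspExer samples. TranspCtrl replicate 1 lay close above the TranspExer samples and the other TranspCtrl samples lay well above them. The log2 fold change was -0.58 ± 0.15 (SE, adjusted p = 0.0226), between means of 31.1 ± 6.51 and 20.7 ± 0.662 CPM (SD, n = 3 each). This call was the least firm of the 8. Without TranspCtrl replicate 1 the log2 fold change was -0.75 with an adjusted p of 3.92e-06. Without any 1 of the other samples the call was lost, at log2 fold changes of -0.61 to -0.49. Leaving out TranspCtrl replicate 2 or 3 raised the adjusted p to 0.0614 and 0.0675, and leaving out TranspExer replicate 1, 2 or 3 raised it to 0.0625, 0.0729 and 0.0775. A 350-base part of the exons of *Prelp* is overlapped by the antisense gene *Gm15851*, which was listed with 0 counts in every sample, and the strand setting of the counting is not given in the sources used here.

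*Omd* (ENSMUSG00000048368, chr13:49582462-49592822, plus strand) encodes osteomodulin, also called osteoadherin, a keratan sulphate proteoglycan of mineralized matrix that binds integrins. Rounded counts were 111, 92 and 129 in the TranspCtrl samples and 29, 29 and 21 in the TranspExer samples, or 5.42, 4.72 and 6.00 CPM against 1.52, 1.69 and 1.04 CPM. The counts were modest but the groups were clearly apart. The log2 fold change was -1.93 ± 0.22 (SE, adjusted p = 0.000621). *Omd* was the only one of the 10 genes whose deposited values were not all whole numbers, and 4.67% of the 50-base words of its transcripts also occur in transcripts of other genes such as *Vamp3*, so a small part of its counts could be shared.

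*Lum* (ENSMUSG00000036446, chr10:97565128-97572703, plus strand) encodes lumican, the keratan sulphate proteoglycan best known for the ordered collagen of the cornea. Its counts were 56, 28 and 39 in the TranspCtrl samples and 2, 6 and 5 in the TranspExer samples. These are near the limit of detection in the TranspExer group, and the sample with 2 counts was under the 3 counts used here as the floor. The levels were 2.00 ± 0.667 and 0.234 ± 0.123 CPM (SD, n = 3 each), with a log2 fold change of -3.08 ± 0.44 (SE, adjusted p = 0.00189). This was the lowest log2 fold change of the 9 genes and the one with the widest error. When a gene needed 10 counts in every sample to be tested, *Lum* dropped out and 7 genes were lower, 4 of them by at least 2-fold.

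*Kera* (ENSMUSG00000019932, chr10:97606879-97613692, plus strand), which encodes the corneal proteoglycan keratocan, had 0 counts in all 6 samples. A count of 0 allows up to 3 counts, which equalled 0.139 to 0.174 CPM at the depths of these samples, so *Kera* was not detectable here and could not be compared. Such floors cover counting error only.

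*Ogn* (ENSMUSG00000021390, chr13:49608046-49624501, plus strand) is the class III gene and encodes osteoglycin, or mimecan, a small matrix protein found in bone and vessel walls. Its level was 227, 231 and 217 CPM in the TranspCtrl samples and 131, 127 and 125 CPM in the TranspExer samples. The groups were well apart, with means of 225 ± 7.16 and 127 ± 3.04 CPM (SD, n = 3 each). The log2 fold change was -0.82 ± 0.07 (SE, adjusted p = 0.000213), which left 56.6% of the TranspCtrl level.

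*Podn* (ENSMUSG00000028600, chr4:108014791-108096445, minus strand), the class V gene, encodes podocan, a collagen-binding protein that restrains growth of smooth muscle cells. It was the gene that did not follow the others. Counts were 88, 116 and 123 in the TranspCtrl samples and 138, 111 and 155 in the TranspExer samples, or 4.30, 5.96 and 5.72 CPM against 7.22, 6.45 and 7.70 CPM. The TranspExer samples were all above the TranspCtrl samples in CPM, by a narrow margin. The log2 fold change of 0.42 ± 0.16 (SE) did not pass (adjusted p = 0.0824), nor did it under any alternative tried (adjusted p 0.0761 to 0.236). *Podn* overlaps *Scp2* on the same strand with 0 shared exon bases, and *Scp2* had a log2 fold change of -0.03.

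**Figure D2:**
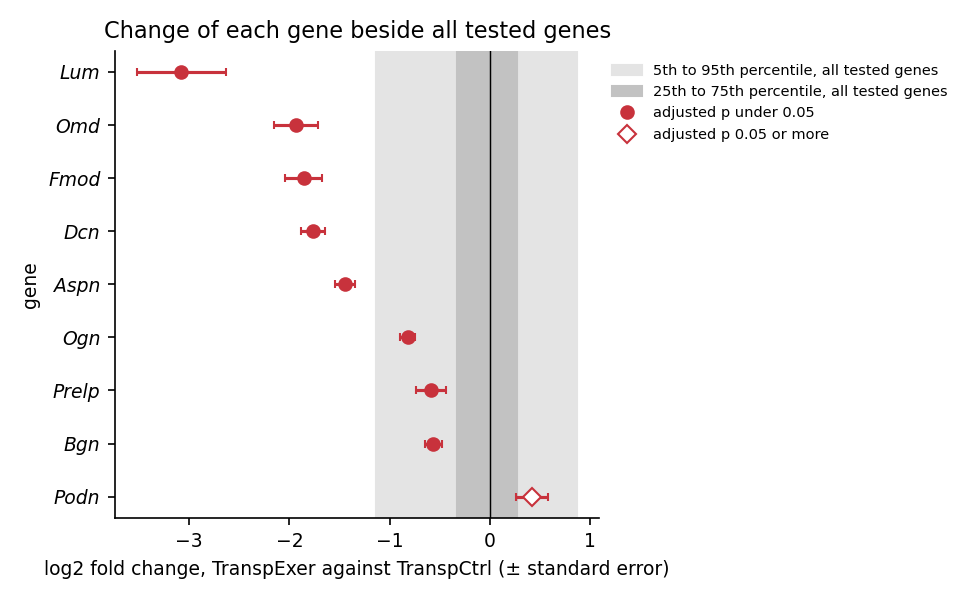
Log2 fold change of each tested SLRP gene (TranspExer against TranspCtrl) with its standard error, filled circles for an adjusted p under 0.05 and an open diamond otherwise, over bands that hold the middle of all 15190 tested genes. *Lum*, *Omd*, *Fmod*, *Dcn* and *Aspn* lie left of the 5th percentile of all genes at -1.13, while *Ogn*, *Prelp* and *Bgn* lie between it and the 25th percentile at -0.32.

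The decreases were thus of unequal size, as the plot of fold changes shows. Among all tested genes ordered by log2 fold change, *Lum* stood at percentile 0.678, *Omd* at 1.87, *Fmod* at 2.03, *Dcn* at 2.28 and *Aspn* at 3.17. *Ogn* followed at 8.43, *Prelp* at 13.5 and *Bgn* at 14.1, and *Podn* at 83.7. The most abundant genes, *Bgn* and *Ogn*, were among the 3 with the smallest decreases, and the least abundant called gene, *Lum*, had the largest. *Lum* had only 2 to 6 counts in the TranspExer samples and could be tested because of its 28 to 56 counts in the TranspCtrl samples.

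To compare levels between genes, counts were divided by the gene length listed in the table and scaled to the same total in every sample (TPM). The listed lengths were 2419 bases for *Bgn*, 1758 for *Dcn*, 2885 for *Podn* and 2566 for *Ogn*. The merged exons of these genes in GENCODE M21 cover 6099, 5838, 4270 and 2566 bases. The ratio of *Bgn* to *Ogn* and the places of *Dcn* and *Podn* below thus depend on the length used. The order by merged exon length was not tested. In the TranspCtrl group *Bgn* led with 1476 ± 77.1 TPM, 8.01 times the 184 ± 8.12 TPM of *Ogn*. *Fmod* followed at 42.2, *Aspn* at 24.7, *Prelp* at 18.0, *Dcn* at 16.5, *Omd* at 5.02, *Podn* at 3.88 and *Lum* at 1.71 TPM. Neighbours in this order were apart in every sample except *Prelp* and *Dcn*, whose values overlapped. In the TranspExer group *Bgn* (977 ± 54.1 TPM) and *Ogn* (102 ± 1.13 TPM) again led. Below them the order changed: *Prelp* (11.8 TPM) came beside *Fmod* (11.4 TPM), then came *Aspn* (8.85 TPM), and *Podn* (5.07 TPM) came beside *Dcn* (4.75 TPM), ahead of *Omd* (1.29 TPM) and *Lum* (0.197 TPM). The ranges of *Fmod* and *Prelp* overlapped in this group, as did those of *Podn* and *Dcn*, and those of the other neighbours did not. Within each sample, *Dcn* was above *Podn* per length in all 3 TranspCtrl samples and below it in all 3 TranspExer samples, by a small margin (4.59 against 4.64 TPM in TranspExer replicate 2).

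Summed over the 10 genes, SLRP mRNA made up 1973 to 2164 CPM in the TranspCtrl samples (mean 2072 ± 95.6, SD, n = 3) and 1297 to 1384 CPM in the TranspExer samples (1339 ± 44.0). *Bgn* was most of that sum, at 82.0 ± 0.277% in the TranspCtrl group and 85.9 ± 0.664% in the TranspExer group. Without *Bgn* the sum was 372 ± 22.8 CPM against 188 ± 2.95 CPM. Within the sum the share of *Fmod* was 3.01% against 1.29% and that of *Dcn* 0.667% against 0.304%. The share of *Prelp* was nearly level, at 1.49% and 1.55%, and that of *Podn* was 0.256% against 0.533%.

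SLRP genes lie in clusters, and 8 of the 10 sat in 3 of them. *Prelp* and *Fmod* are 115.839 kb apart on chromosome 1, facing opposite ways. *Dcn*, *Lum* and *Kera* follow each other on chromosome 10, with gaps of 46.984 and 34.175 kb. *Aspn*, *Omd* and *Ogn* follow each other on chromosome 13, with gaps of 14.896 and 15.223 kb, all within the span of *Cenpp*, a centromere protein gene read from the other strand. *Bgn* on chromosome X and *Podn* on chromosome 4 stand alone.

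**Figure D3:**
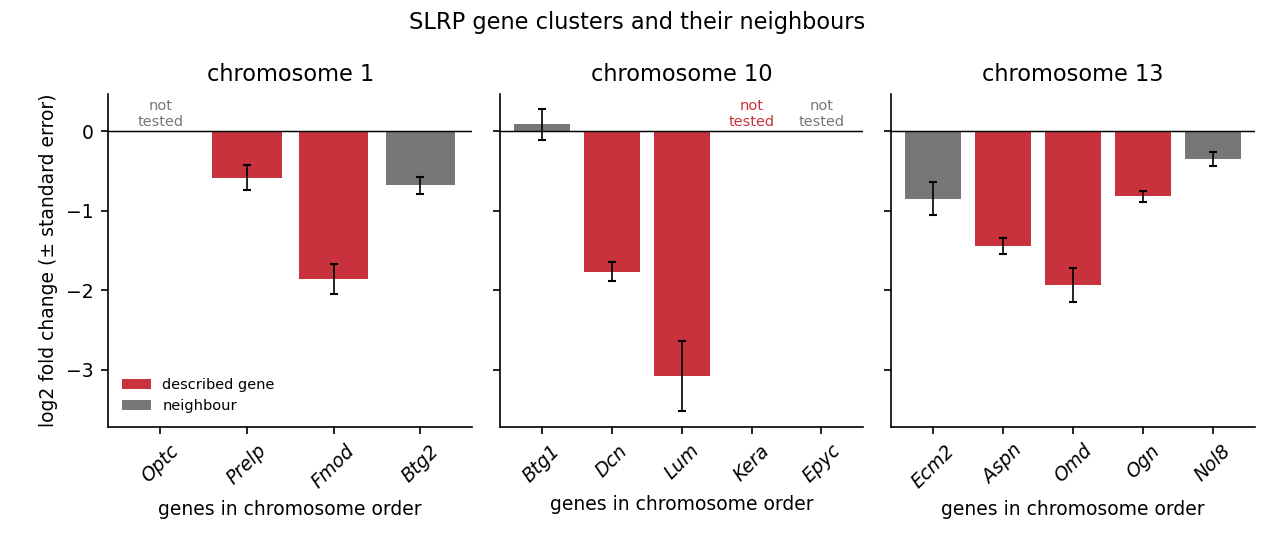
Log2 fold change (TranspExer against TranspCtrl, bars, with standard errors) of the SLRP genes and the protein-coding genes beside them on chromosomes 1, 10 and 13, in chromosome order and not to scale along the chromosome, without *Cenpp*, which spans the chromosome 13 trio. The SLRP bars within a cluster differ in length, and *Ecm2*, *Btg2* and *Nol8* beside them also point down, while *Btg1* is near 0.

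The genes next to the clusters were a mixed set. On chromosome 13, *Ecm2*, which encodes a related leucine-rich matrix protein, was at 4.83 ± 1.16 and 2.68 ± 0.113 CPM (SD, n = 3 each), a log2 fold change of -0.85 ± 0.21 (SE, adjusted p = 0.0176). *Nol8* on the other side of the trio, a nucleolar protein gene, fell by 0.35 on the log2 scale (adjusted p = 0.0224). *Cenpp*, which spans the trio, had -0.14 and did not pass (adjusted p = 0.517), and it shares 7 exon bases with *Aspn* on the opposite strand. On chromosome 10, *Btg1* was at 0.09 (adjusted p = 0.753), and *Epyc*, the SLRP gene epiphycan, had 0 counts in every sample. On chromosome 1, *Btg2* fell by 0.68 on the log2 scale (adjusted p = 0.00295). *Haus7* beside *Bgn* had -0.06 (adjusted p = 0.717), and *Echdc2* beside *Podn* had -0.66 (adjusted p = 0.0199).

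The trio on chromosome 13 held 3 genes that fell together but by unequal amounts, *Aspn* to 36.7%, *Omd* to 26.3% and *Ogn* to 56.6% of the TranspCtrl mean. The 100 bases before each start site are shown to let their promoters be compared, taken from RefSeq on GRCm38.p6, all on the plus strand, at chr13:49544343-49544442 for *Aspn*, chr13:49582362-49582461 for *Omd* and chr13:49607915-49608014 for *Ogn*. Capitals mark a match to ACCACA, a core of sites bound by RUNX factors.
*Aspn*: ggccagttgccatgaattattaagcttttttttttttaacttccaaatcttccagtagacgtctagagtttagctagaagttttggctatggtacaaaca
*Omd*: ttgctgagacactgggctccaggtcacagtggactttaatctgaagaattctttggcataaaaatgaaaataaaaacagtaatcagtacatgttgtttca
*Ogn*: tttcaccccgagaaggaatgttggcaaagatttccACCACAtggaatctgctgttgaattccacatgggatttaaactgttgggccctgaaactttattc
Promoters were available for 6 of the 8 genes that fell, and *Dcn* and *Lum* were not among them. The 250 bases before each start were searched on both strands for TATAAA, for TGANTCA, the usual AP-1 site, and for ACCACA. *Ogn* held ACCACA at 65 to 60 bases before its start and overlapping matches to TATAAA at 227 to 222 and, on the other strand, 229 to 224. *Aspn* held TATAAA at 207 to 202 and, on the other strand, at 178 to 173 bases before its start. *Omd*, *Bgn*, *Fmod* and *Prelp* held none of these 3 letter strings. Of 32851 RefSeq promoters searched the same way, 12.4% held TATAAA, 6.75% TGANTCA and 14.0% ACCACA.

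Of the 8 other genes of the wider family, 3 could be tested, and *Ecm2* was the 1 that passed. *Podnl1*, which encodes podocan-like protein, was at 37.0 ± 1.75 and 31.0 ± 2.90 CPM (SD, n = 3 each) with a log2 fold change of -0.25 (adjusted p = 0.0704). *Tsku*, which encodes the secreted BMP and TGF-β binder tsukushi, was at 29.7 ± 7.75 and 23.8 ± 1.08 CPM (SD, n = 3 each) with -0.32 (adjusted p = 0.207). Without TranspCtrl replicate 1 all 3 were lower (19.6% of all tested genes in that fit), and without any 1 of the TranspExer samples edgeR called 0 lower (8.48% to 9.06% of all tested genes), so these calls depended on single samples. *Chad*, the cartilage protein chondroadherin, had 0 to 4 counts in the TranspCtrl samples and 8 to 20 in the TranspExer samples and was too low to test. *Optc*, *Chadl* and *Nyx* had at most 12 counts in any sample.

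The other genes that make, cut or bind these proteins did not share one direction. Of the 28 genes that build and sulphate the glycosaminoglycan chains, 12 were higher, 3 were lower and 13 did not pass, where 16.6% of all tested genes were higher and 15.5% lower. The median log2 fold change of the list was 0.33, beside -0.02 over all tested genes. *Xylt1*, a xylosyltransferase that starts the chains on the core protein, was at 28.8 ± 2.41 CPM in the TranspCtrl group and 52.6 ± 3.89 CPM in the TranspExer group (SD, n = 3 each), a log2 fold change of 0.87 ± 0.09 (SE, adjusted p = 0.000521). *Chst7*, a chondroitin sulphotransferase, rose by 1.54 (adjusted p = 0.000782) and *Csgalnact2*, which begins the chondroitin part of the chain, by 0.52 (adjusted p = 0.00201), both on the log2 scale. *Chst3*, another chondroitin sulphotransferase, fell by 0.81 (adjusted p = 0.00135). *Csgalnact1*, the relative of *Csgalnact2* and named after its values were seen, fell by 0.73 (adjusted p = 0.00336). Without TranspCtrl replicate 1, 13 genes of this list were higher and 5 lower, where that fit called 22.1% of all tested genes higher and 19.6% lower.

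**Figure D4:**
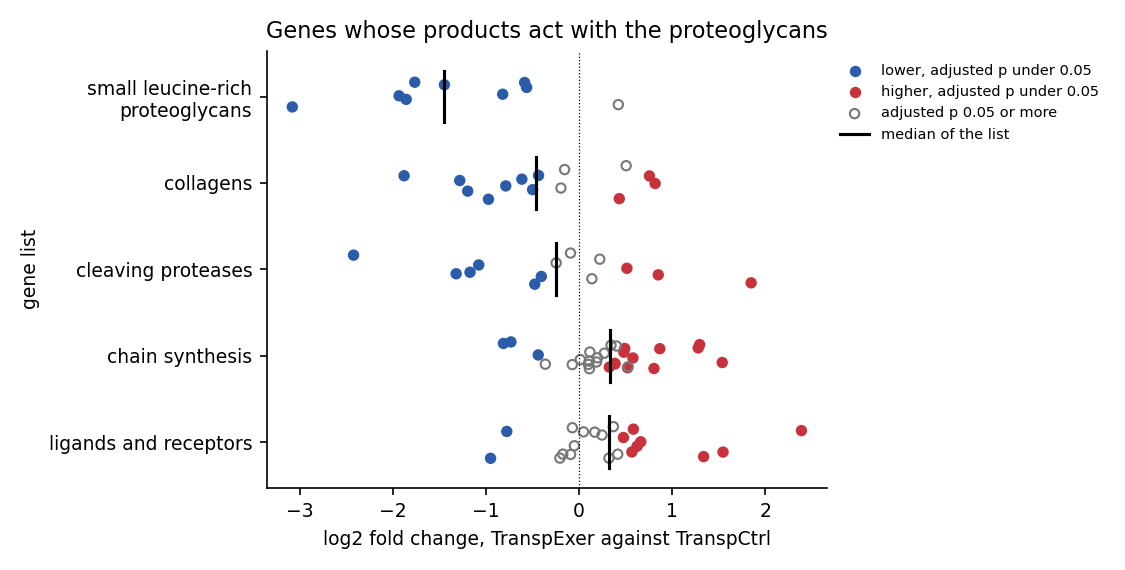
Log2 fold change (TranspExer against TranspCtrl) of the tested SLRP genes and of the genes of 4 related lists, 1 point per gene, with filled points for an adjusted p under 0.05 (blue lower, red higher), open points otherwise and a black line at the list median. The SLRP median lies at -1.45 and the medians of the other lists between -0.47 and 0.33.

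Of the 14 collagens whose fibrils SLRPs coat, 8 were lower, 3 higher and 3 did not pass, with a median of -0.47, the lowest of the 4 related lists plotted. Over all tested genes 15.5% were lower and 16.6% higher. *Col11a1*, a minor chain inside fibrils, fell from 141 ± 5.45 to 38.4 ± 2.03 CPM (SD, n = 3 each), a log2 fold change of -1.88 ± 0.08 (SE, adjusted p = 1.7e-05). *Col3a1*, the chain of type III collagen, fell by 1.28 (adjusted p = 8.1e-05), *Col5a2*, a chain of the type V collagen at fibril cores, by 1.20 (adjusted p = 8.5e-05) and *Col12a1*, which lies on fibril surfaces, by 0.97 (adjusted p = 0.000372), all on the log2 scale. *Col1a1*, the most abundant gene of the list and named after its values were seen, had a log2 fold change of -0.16 and did not pass (adjusted p = 0.674). The fit without TranspCtrl replicate 1 had 10 collagens lower and 4 higher, beside 19.6% and 22.1% of all tested genes. Without TranspExer replicate 3 the number that were higher was 1, beside 8.55% of all tested genes, with 7 to 10 lower when any single sample was left out.

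Of 13 tested genes for proteases and their helpers that cut SLRPs, 6 were lower and 3 higher, against 15.5% and 16.6% of all tested genes, with a median log2 fold change of -0.25. The 4 with the smallest adjusted p were lower: *Pcolce*, which boosts procollagen cleavage by BMP1, at -1.17 (adjusted p = 6.5e-05), the gelatinases *Mmp9* at -2.42 (adjusted p = 6.5e-05) and *Mmp2* at -1.08 (adjusted p = 0.000105), and granzyme B, *Gzmb*, at -1.32 (adjusted p = 0.000756). Among the 3 that were higher, named after their values were seen, *Mmp12*, the macrophage elastase and the most abundant gene of this list, rose from 590 ± 90.4 to 1064 ± 62.1 CPM (SD, n = 3 each, log2 fold change 0.85, adjusted p = 0.00179) and *Tll1*, a relative of BMP1, rose by 1.85 on the log2 scale (adjusted p = 0.00601). The list's counts became 7 lower and 4 higher without TranspCtrl replicate 1, beside 19.6% and 22.1% of all tested genes in that fit. Of the 21 ligands and receptors that SLRPs bind, 8 were higher, 2 lower and 11 did not pass, against 16.6% higher and 15.5% lower over all tested genes, with a median of 0.32. The VEGF receptor *Kdr* (1.55, adjusted p = 7.6e-05) and the growth factor *Bmp2* (2.39, adjusted p = 0.000406) rose, and *Egfr*, a receptor for decorin (-0.95, adjusted p = 0.000136), and *Tlr2*, a receptor for biglycan (-0.78, adjusted p = 0.000744), fell. *Tgfb1*, named after its values were seen, was at 224 ± 87.3 and 567 ± 19.7 CPM (SD, n = 3 each), a log2 fold change of 1.34 (adjusted p = 0.00836). Without TranspCtrl replicate 1, 11 of these genes were higher and 5 lower, beside 22.1% and 19.6% of all tested genes in that fit.

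Markers of the cell types that such a culture can hold were measured beside the SLRP genes, and their counts stand beside the 15.5% lower and 16.6% higher of all tested genes. All 12 marrow stromal markers were expressed, and their summed level was 2098 to 2349 CPM in the TranspCtrl samples and 2035 to 2064 CPM in the TranspExer samples, with 5 lower, 2 higher and 5 that did not pass. The largest part of that sum was the chemokine gene *Cxcl12* (1396 ± 69.3 and 1016 ± 15.3 CPM, SD, n = 3 each). By the group means it was most of the sum in the TranspCtrl group only. Macrophage markers summed to more than that, 3167 to 3522 against 3599 to 3712 CPM (1 lower and 3 higher of 8). RNA of the cells labelled MSCs thus held macrophage transcripts in both groups.

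**Figure D5:**
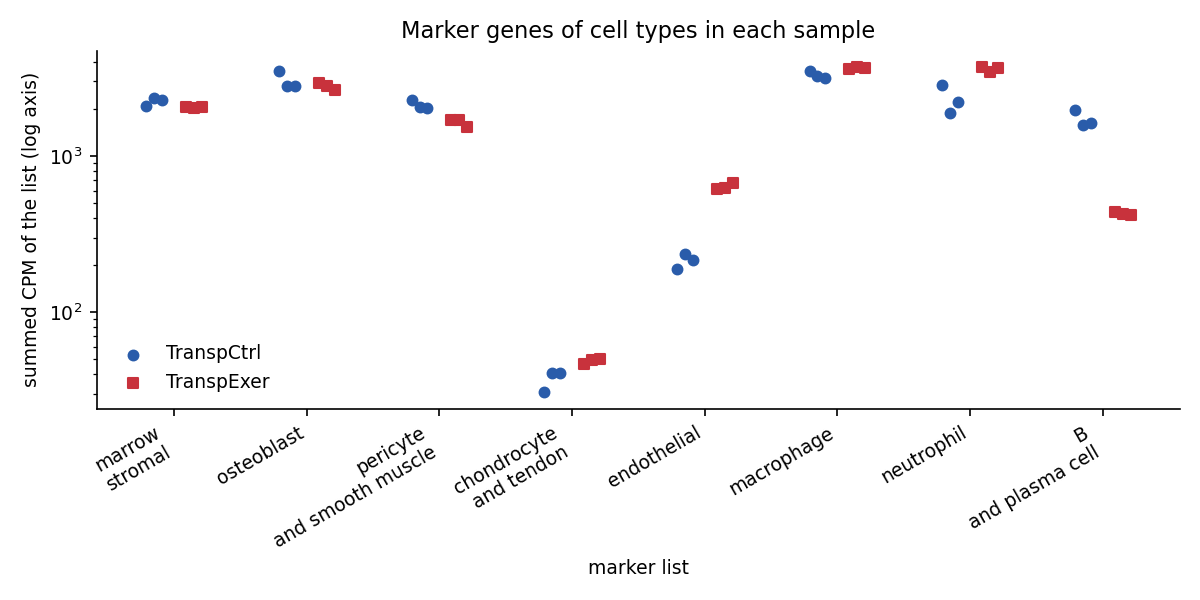
Summed CPM (log axis) of 8 cell type marker lists in each sample, with circles for TranspCtrl and squares for TranspExer. Endothelial sums are higher in all 3 TranspExer samples, B and plasma cell sums are lower, and the marrow stromal sums are lower by a narrow margin.

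Of all tested genes 15.5% were lower and 16.6% higher, and counts such as 1 or 2 of 8 lie near those shares. Endothelial markers were higher for 8 of 8 genes, with sums of 190 to 235 against 618 to 670 CPM, and B and plasma cell markers were lower for 6 of 8, with 1588 to 1965 against 418 to 441 CPM. Neutrophil markers summed to 1887 to 2841 against 3437 to 3709 CPM (1 lower and 2 higher of 8), a list median of 0.07 on the log2 scale. The genes that were higher were the early granule genes *Mpo* (216 ± 57.2 and 1197 ± 73.3 CPM) and *Elane* (97.5 ± 22.9 and 435 ± 7.68 CPM), each with SD and n = 3. Pericyte and smooth muscle markers summed to 2036 to 2284 against 1544 to 1706 CPM (2 lower and 4 higher of 7). That sum was mostly the smooth muscle actin gene *Acta2* (1987 ± 131 and 1436 ± 87.6 CPM, SD, n = 3 each), and it ran against the list median of 0.97. T and NK cell markers were at 14.6 to 20.1 against 25.5 to 29.3 CPM (1 lower and 1 higher of 6). That sum followed the cytotoxic granule gene *Nkg7* (7.45 ± 0.964 and 19.1 ± 1.09 CPM, SD, n = 3 each), against a list median of -0.16. Erythroid markers, with 1 of 6 tested and higher, were at 1.39 to 2.37 against 3.82 to 5.23 CPM.

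Among the lineages closest to SLRP expression, osteoblast markers were lower for 4 of 6 tested genes and 2 did not pass, where 15.5% of all tested genes were lower and 16.6% higher, with a median log2 fold change of -1.03. Their sums were 2817 to 3521 against 2660 to 2913 CPM, with the high end in TranspCtrl replicate 1 alone. Most of the sum was *Spp1*, the osteopontin gene (2845 ± 436 and 2679 ± 125 CPM, SD, n = 3 each), which did not pass (adjusted p = 0.612). *Ibsp*, the gene of bone sialoprotein, fell from 33.2 ± 2.13 to 4.28 ± 0.909 CPM (SD, n = 3 each, log2 fold change -2.96, adjusted p = 3.55e-05). *Bglap*, a late osteoblast gene for osteocalcin and the only osteocalcin gene in the list, had at most 1 count in any sample. Chondrocyte and tendon markers summed to 30.7 to 40.7 against 46.8 to 50.1 CPM, with 2 lower and 1 higher of 6 tested and a median log2 fold change of 0.10. The higher one was the cartilage collagen *Col2a1* (20.5 ± 4.16 and 36.1 ± 2.16 CPM, SD, n = 3 each, log2 fold change 0.82, adjusted p = 0.00523). The tendon gene *Mkx* was at 0.35 and did not pass (adjusted p = 0.136). The lower ones were the tendon genes *Tnmd* (3.30 ± 1.20 and 0.247 ± 0.0146 CPM, log2 fold change -3.70, adjusted p = 0.000399) and *Scx* (3.15 ± 0.801 and 0.865 ± 0.120 CPM, log2 fold change -1.86, adjusted p = 0.00208), each with SD and n = 3. In the TranspExer group *Tnmd* lay near the floor of 0.139 to 0.174 CPM, so the size of its change rests on few counts. All marker genes given by name, *Acta2* included, were picked after their values were seen. The part of these shifts in the SLRP decreases was not tested.

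The SLRP genes were also set against the stromal marker sum of the same sample. *Cxcl12* is the largest part of that sum in both groups, with a larger share in the TranspCtrl group. The log2 ratio of each gene to that sum differed between the group means (TranspExer minus TranspCtrl) by -3.08 for *Lum*, -1.82 for *Omd*, -1.70 for *Fmod*, -1.64 for *Dcn*, -1.32 for *Aspn* and -0.69 for *Ogn*. It differed by -0.44 for both *Bgn* and *Prelp* and by 0.56 for *Podn*. The ratio depends on the markers chosen and carries no test: *Pdgfra*, 1 of the 5 stromal markers that were lower, fell from 112 ± 3.96 to 55.8 ± 0.652 CPM (SD, n = 3 each), a larger decrease than that of *Bgn*, *Prelp* or *Ogn*, and *Vcam1* rose from 281 ± 12.0 to 442 ± 8.24 CPM (SD, n = 3 each).

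The genes whose pattern over the 6 samples was most like that of *Bgn* and *Dcn* were found among 9674 genes with a mean of at least 10 CPM. For *Bgn*, the most abundant of the family, they were *Sspn* (Pearson r = 0.999 on log2 CPM), a membrane protein of the dystrophin complex, *Cpt1c* (r = 0.998) and *Slc1a5* (r = 0.998), a glutamine transporter. For *Dcn*, which had the smallest adjusted p, they were *Pou2af1* (r = 0.9998), a B cell coactivator, *F13a1* (r = 0.9995), the coagulation factor XIII subunit that macrophages make, and *St8sia6* (r = 0.999), a sialyltransferase. All these points share the split into groups and the scaling of each library, and the list is a description of these 6 samples.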

How the data were processed

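RNA of 3 TranspCtrl and 3 TranspExer samples was sequenced on an Illumina platform. The labels name the Illumina Stranded mRNA kit, the published methods a TruSeq kit. The table the authors deposited holds, for each gene, the expected counts of each sample, estimated from the reads and not normalized, and a gene length, and 10.1% to 12.2% of a sample's values were not whole. The submitters' processing notes name mm10. The aligner, counter and strand setting are not given in the sources used here.

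Counts were rounded, filtered (filterByExpr, 15190 genes kept), TMM-scaled and tested with edgeR 4.0.16 (quasi-likelihood, group as the only term, all 6 samples) in R 4.3.3, with Benjamini-Hochberg adjustment over all tested genes. Thresholds were an adjusted p of 0.05 and, where said, a fold change of 2. SEs were derived from the log2 fold change and the F statistic. The fit was checked on simulated data, in which no sample was set apart as TranspCtrl replicate 1 is here. TPM used the deposited gene lengths. Log2 CPM used a prior count of 2. Positions and overlaps came from GENCODE M21 (GRCm38), which held all 10 SLRP genes and 52125 of the 56980 gene identifiers, and promoters from RefSeq.

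The SLRP genes and all lists were chosen with earlier results of these data known. Named genes were the SLRP genes, the tested genes of the wider family, up to 4 called genes of smallest adjusted p per pathway list and the 3 genes most like *Bgn* and *Dcn*. Neighbours were named by position and untested family genes as members of their list. *Csgalnact1*, *Col1a1*, *Mmp12*, *Tll1*, *Tgfb1* and the cell type markers named were picked after their values were seen. Protein sequences were not analysed here. Alternatives were DESeq2 1.42.0, limma voom (limma 3.58.1), other scalings, filters and thresholds, a replicate block and leaving out each sample.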

Additional observations from a re-analysis of the deposited data

How the results depend on the processing

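Over the alternatives that give a fold change, 116 fold changes of the SLRP genes were recomputed, and 111 kept their direction and their side of the threshold, 0 reversed, and 5, all for *Prelp* when a sample other than TranspCtrl replicate 1 was left out, no longer passed. The number of SLRP genes called lower ranged from 7 to 8 with 1 sample left out, and 4 passed both thresholds when 10 counts were required in every sample, because *Lum* was then not tested. Counts of some of the other lists moved by over 1.5 times. In the wider family the 1 gene called lower became 2 with upper-quartile or library-size scaling and 0 to 3 with 1 sample left out, and the 0 called higher became 1 with no low-count filter. With 1 sample left out, the chain synthesis genes called lower ranged from 2 to 5, the collagens called higher from 1 to 4, and the ligands and receptors called lower from 2 to 5. The cause was not tested. Over all tested genes, leaving out 1 sample gave 1325 to 3041 lower and 1315 to 3417 higher, with the low ends without TranspExer replicate 2 and the high ends without TranspCtrl replicate 1.

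Replicate numbers do not pair the samples: deviations of same-numbered samples from their group means correlated at 0.02, -0.00 and 0.04, and 1 of 3 numbers matched best with itself. With the replicate number as a block, 8 SLRP genes were lower, 0 higher (edgeR) and 5 past both thresholds, and 2218 genes in all were lower and 2484 higher, against 2361 and 2523 without it.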
